A study of Rattus norvegicus with 26 samples.

Results

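Mature granule cells are the principal excitatory neurons of the dentate gyrus, the entry gate of the hippocampal circuit. The genes described here are 10 genes used as markers of these cells: Prox1, Calb1, C1ql2, C1ql3, Dsp, Tdo2, Lct, Trpc6, Glis3 and Stxbp6. They were picked by gene name from a list, and the rows of each gene were summed by gene identifier. Of the 17910 genes with a value, 9 are members of this set, and 8 of those 9 passed the filter of a mean of at least 5 normalized counts over the 26 rats, which 15595 genes passed in all. The exception was Lct, and Tdo2 was not analysed here. Trpc6 had 2 rows, with means of 525.9 and 30.5 normalized counts, and each of the other 8 genes had 1.

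RNA was measured in the dentate gyrus of male F344 rats that were 6 months old, with 1 library per rat taken from the hippocampus of 1 hemisphere. The Dox group (n = 8) received doxorubicin, an anthracycline used in cancer chemotherapy, in 4 weekly doses of 2 mg/kg. The Dox + ABT group (n = 8) received the same doxorubicin together with ABT-263, an inhibitor of Bcl family survival proteins that is used to clear senescent cells, at 12 mg/kg on 5 days in a row in alternating weeks. The Veh group (n = 10) received vehicle, and its rats also belonged to a parallel project on senolytic drugs and brain ageing. No group received ABT-263 without doxorubicin. Both drug-treated groups were compared with the same Veh rats, so those comparisons share their controls.

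Granule cells receive input from the entorhinal cortex on their dendrites and send it on through mossy fibre axons to hilar mossy cells and to field CA3. Their identity depends on the homeobox factor Prox1, and Glis3 is a zinc finger transcription factor. C1ql2 and C1ql3 encode secreted C1q-like proteins of the mossy fibre synapse, where they bind neurexin and recruit kainate receptors. Calb1 encodes the calcium buffer calbindin, Trpc6 a calcium-permeable cation channel, Dsp the desmosomal plaque protein desmoplakin, and Stxbp6 the syntaxin-binding protein amisyn. Tdo2 encodes a tryptophan dioxygenase and Lct encodes lactase, and both serve as anatomical markers of the granule cell layer in rodents.

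The sequences just upstream of 5 members are shown because these genes carry the results: C1ql2 and C1ql3 differed between groups, and Dsp, Trpc6 and Stxbp6 varied together from rat to rat. Each run holds the 250 bases before the annotated start in RefSeq, assembly GRCr8, written 5′ to 3′ on the strand of the gene; capitals mark matches to CANNTG, the E-box read by basic helix-loop-helix factors. The positions are chr13:34023652-34023901 (plus strand) for C1ql2, chr17:81038245-81038494 (minus strand) for C1ql3, chr17:26877122-26877371 (minus strand) for Dsp, chr8:14043966-14044215 (plus strand) for Trpc6 and chr6:67884339-67884588 (minus strand) for Stxbp6. The expression values were made on another build, rn6, so these positions were not tied to them.
C1ql2: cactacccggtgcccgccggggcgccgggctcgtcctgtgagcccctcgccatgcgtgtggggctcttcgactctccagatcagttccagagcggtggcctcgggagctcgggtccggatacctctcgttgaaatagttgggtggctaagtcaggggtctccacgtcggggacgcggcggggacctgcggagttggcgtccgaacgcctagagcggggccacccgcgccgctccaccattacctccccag
C1ql3: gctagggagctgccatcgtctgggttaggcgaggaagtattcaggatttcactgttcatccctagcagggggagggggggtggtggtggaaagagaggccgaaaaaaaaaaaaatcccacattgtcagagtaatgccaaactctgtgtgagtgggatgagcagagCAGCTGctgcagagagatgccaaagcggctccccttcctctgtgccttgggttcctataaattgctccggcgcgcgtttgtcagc
Dsp: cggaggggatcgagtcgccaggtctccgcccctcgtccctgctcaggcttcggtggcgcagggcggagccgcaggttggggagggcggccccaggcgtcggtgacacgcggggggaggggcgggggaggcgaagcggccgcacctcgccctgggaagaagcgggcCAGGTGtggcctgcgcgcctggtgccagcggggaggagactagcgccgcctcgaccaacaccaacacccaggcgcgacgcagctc
Trpc6: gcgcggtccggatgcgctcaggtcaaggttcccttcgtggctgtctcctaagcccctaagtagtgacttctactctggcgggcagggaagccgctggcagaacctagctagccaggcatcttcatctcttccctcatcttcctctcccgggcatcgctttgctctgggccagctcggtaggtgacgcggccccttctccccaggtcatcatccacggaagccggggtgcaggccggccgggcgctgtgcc
Stxbp6: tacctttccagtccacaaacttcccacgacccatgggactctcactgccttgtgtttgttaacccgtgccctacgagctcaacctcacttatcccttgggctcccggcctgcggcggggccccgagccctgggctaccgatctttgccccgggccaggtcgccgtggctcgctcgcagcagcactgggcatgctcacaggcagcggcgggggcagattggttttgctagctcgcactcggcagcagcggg

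C1ql3 and Dsp each held 1 CANNTG match, CAGCTG and CAGGTG respectively, both with the first base at position -85 counted from the start. C1ql2, Trpc6 and Stxbp6 held 0 such matches in this window. Among 33469 upstream regions of the same length, 65.5% held CANNTG and 11.97% held CAGCTG; both letter strings read the same on both strands. A second string, TGACG on either strand, was found once in Trpc6 and 0 times in the other 4, against 18.2% of all regions. The share of G and C was 68.8% for C1ql2, 54.0% for C1ql3, 75.2% for Dsp, 64.4% for Trpc6 and 64.8% for Stxbp6, beside a median of 51.2% over all regions. These matches describe letters only.

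The libraries came in 2 kinds that the labels do not name. They were told apart by the leading axis of a principal component analysis of each gene's departures from its group mean, computed without the members, and this axis held 28.4% of that variance. The 16 libraries of the first kind were 4 Veh, 5 Dox and 7 Dox + ABT, and the 10 of the second kind were 6 Veh, 3 Dox and 1 Dox + ABT, so the kinds were spread unevenly over the groups. Ribosomal protein genes made up 0.645% to 1.27% of the summed signal of a first-kind library and 1.34% to 2.16% of a second-kind one. What set the kinds apart was not tested. Values from a second fit with kind of library in the model are given beside the calls below. Estimated reads per library ran from 10042000 to 24292000, and the group medians were 16658000 (Veh), 15639000 (Dox) and 15112000 (Dox + ABT).

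**Figure D1:**
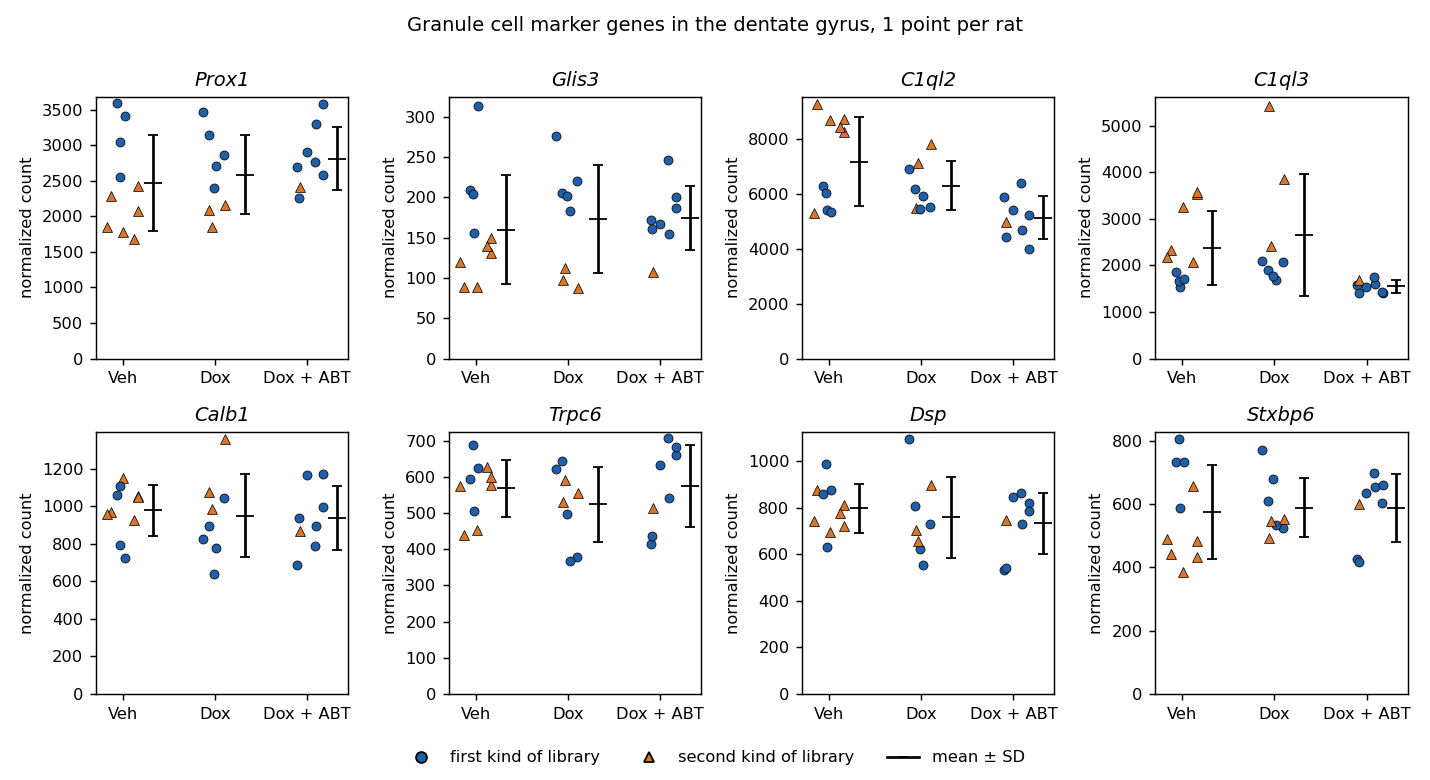
Normalized counts of the 8 tested genes (y axis, from 0) in each rat of the Veh, Dox and Dox + ABT groups (x axis); circles and triangles mark the first and second kind of library, and bars give the mean ± SD. C1ql2 runs from 5295 to 9272 in Veh and from 3980 to 6409 in Dox + ABT, C1ql3 reaches 5424 in 1 Dox rat and stays between 1399 and 1756 in Dox + ABT, and Glis3 is lower in every triangle than in every circle.

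In the Dox group, none of the tested granule cell markers passed the test against Veh. Prox1 had a mean of 2467 ± 678 normalized counts in Veh (SD, n = 10) and 2587 ± 558 in Dox (SD, n = 8), and Calb1 had 980 ± 136 and 950 ± 221. The 2 synaptic organizers did not pass either. Relative to Veh, the log2 fold change was -0.17 for C1ql2 (95% interval -0.42 to 0.08) and 0.11 for C1ql3 (95% interval -0.29 to 0.50). The intervals of Prox1 (-0.21 to 0.38) and Calb1 (-0.32 to 0.19) also spanned 0, on the scale of log2(value + 1). By limma's moderated test, 0 of the 8 members passed an unadjusted p of 0.01 and 0 passed 0.05, where 2.87% and 10.2% of the 15595 genes did. The exact permutation test over the rats gave 0 members under either threshold, with a smallest p of 0.227. The median log2 fold change was -0.00056 over the members and 0.0050 over the tested genes. With kind of library in the model, C1ql2 was at -0.10 (95% interval -0.33 to 0.12) and C1ql3 at 0.26 (95% interval -0.01 to 0.54, p = 0.0573, limma). Weighting the libraries by their fit brought C1ql2 to -0.31 (p = 0.0087, limma, adjusted p = 0.0459), the 1 setting under which a member passed in this comparison. In that weighted fit 11% of all tested genes were lower at p under 0.01, so 1 of 8 members is near the background.

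In the Dox + ABT group, the 2 C1q-like genes were lower than in Veh. C1ql2 ran from 5295 to 9272 normalized counts in Veh with a median of 7267, and from 3980 to 6409 in Dox + ABT with a median of 5111. All 8 Dox + ABT rats lay below the Veh median and 5 lay below every Veh rat, while the upper Dox + ABT values overlapped the lower Veh values. The log2 fold change was -0.46 (SE 0.12, limma p = 0.00070, adjusted p over 15595 genes = 0.109; exact permutation p = 0.0053). C1ql3 ran from 1537 to 3581 in Veh with a median of 2129, and from 1399 to 1756 in Dox + ABT with a median of 1555. Again all 8 Dox + ABT rats were below the Veh median, and 4 were below every Veh rat. The log2 fold change was -0.55 (SE 0.19, limma p = 0.0079, adjusted p = 0.120; exact permutation p = 0.0032). Thus 2 of 8 members fell at an unadjusted p under 0.01 and 0 rose, where 3.95% of all tested genes fell and 3.89% rose. At an adjusted p under 0.05, 0 members and 0 of the 15595 genes passed.

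The kind of library moved with both differences. Of the 10 Veh rats, the 5 with the highest C1ql2, from 8250 to 9272, were all of the second kind, but the other second-kind Veh rat, replicate 12 at 5295, was the lowest of the 10. The 6 second-kind Veh rats had C1ql3 of 2076 to 3581, above the other 4 at 1537 to 1858. With kind of library in the model, C1ql2 stayed under the threshold at -0.33 (SE 0.12, p = 0.0081, adjusted p = 0.671, limma), where 0.731% of genes fell. C1ql3 did not, at -0.22 (95% interval -0.51 to 0.07, p = 0.133, limma). Among first-kind libraries alone (4 Veh and 7 Dox + ABT), neither passed, beside 0.5% of all genes that fell: C1ql2 was at -0.18 (p = 0.129) and C1ql3 at -0.15 (p = 0.0882), both by limma, with exact permutation p-values of 0.200 and 0.0727. In that subset C1ql2 averaged 5765 ± 461 in Veh (SD, n = 4) and 5151 ± 844 in Dox + ABT (SD, n = 7). The C1ql3 call also rested on single rats, since it was lost without Veh replicate 1, 2, 3 or 4, or without Dox + ABT replicate 1, 2, 3, 5, 6 or 11, with p up to 0.0183 (limma). In tissue RNA of this type, fewer granule cells and less RNA per granule cell cannot be told apart.

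C1ql3 was higher in Dox than in Dox + ABT, and this difference was the one that kept its call within the first kind of library. C1ql3 ran from 1688 to 5424 in Dox with a median of 2088. Of the 8 Dox rats, 7 were above every Dox + ABT rat, and the lowest Dox rat lay inside the Dox + ABT range. The log2 fold change was 0.66 (SE 0.20, limma p = 0.0031, adjusted p = 0.186), and the exact permutation p was 0.00047. Among 8 members, 1 was higher in Dox and 0 were lower, where 2.32% and 1.71% of the tested genes were. The top of the Dox range came from replicates 5 and 7, at 5424 and 3864, which were second-kind libraries.

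With kind of library in the model, the C1ql3 difference was 0.48 (SE 0.14, limma p = 0.0018, adjusted p = 0.137), where 2.73% of genes were higher in Dox. In first-kind libraries alone, the 5 Dox rats averaged 1906 ± 181 (SD, n = 5) and the 7 Dox + ABT rats 1528 ± 130 (SD, n = 7). The log2 difference there was 0.32 (limma p = 0.00067, adjusted p = 0.0485; exact permutation p = 0.0038), in a subset where 4.62% of genes were higher in Dox at p under 0.01. Leaving out each rat in turn over all libraries gave differences of 0.49 to 0.74. C1ql2 ran from 5431 to 7816 in Dox with a median of 6044, and all 8 Dox rats were above the Dox + ABT median. Its difference of 0.30 did not pass (95% interval 0.03 to 0.56, limma p = 0.0286, adjusted p = 0.331; exact permutation p = 0.0134). The spread of C1ql3 was unlike between groups, with coefficients of variation of 33.3% (Veh), 49.6% (Dox) and 8.59% (Dox + ABT), the last group holding 1 second-kind library. In first-kind libraries alone they were 7.77%, 9.52% and 8.48% in the same order.

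**Figure D2:**
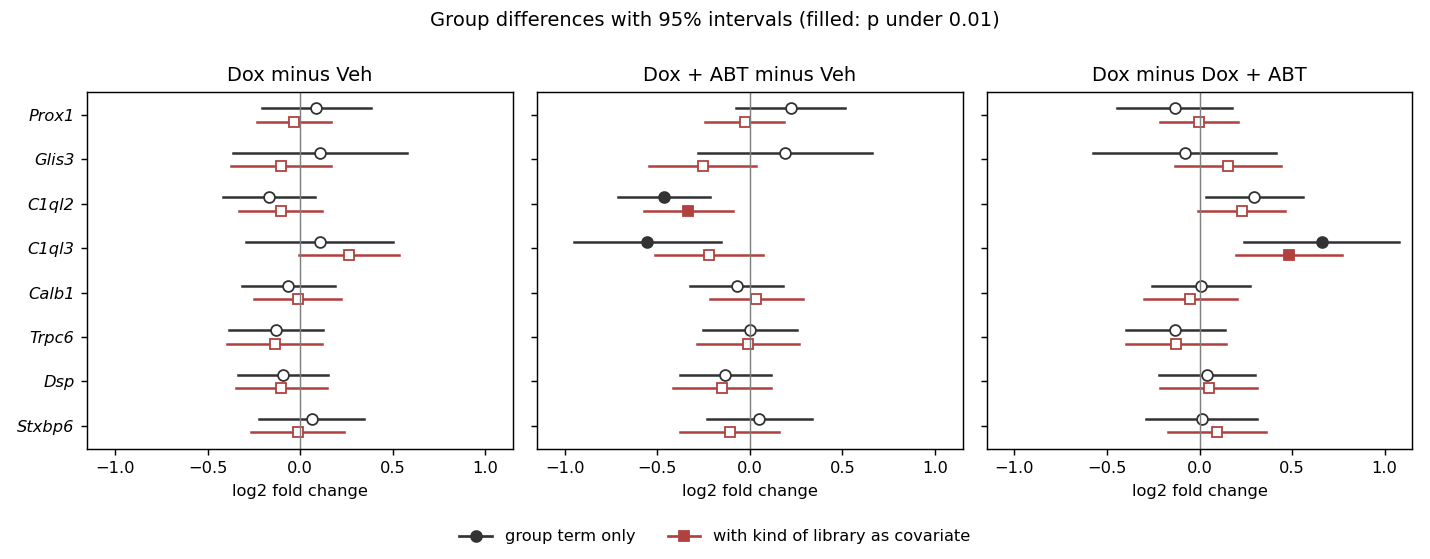
Log2 fold changes (x axis) of the 8 tested genes (y axis) for Dox minus Veh, Dox + ABT minus Veh and Dox minus Dox + ABT; lines are 95% intervals from limma, circles are the fit on groups, squares the fit that includes kind of library, and filled symbols have p under 0.01. C1ql2 (-0.46) and C1ql3 (-0.55) are filled for Dox + ABT minus Veh, C1ql3 (0.66) is filled for Dox minus Dox + ABT, and in the second fit only C1ql2 (-0.33) and C1ql3 (0.48) remain filled.

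The transcription factors Prox1 and Glis3 passed in no comparison. Prox1 ran from 1680 to 3587 in Veh (median 2349), from 1852 to 3473 in Dox (median 2558) and from 2259 to 3577 in Dox + ABT (median 2733). Of the Dox + ABT rats, 7 of 8 were above the Veh median, and the ranges overlapped almost fully. The log2 fold change for Dox + ABT against Veh was 0.22 (95% interval -0.07 to 0.52), and it was -0.03 (-0.24 to 0.18) with kind of library in the model. Under library weights it was 0.34 (limma p = 0.0087, adjusted p = 0.0265), in a fit where 15.5% of all tested genes were higher and 18.4% lower at p under 0.01. Glis3 ran from 89.1 to 314 in Veh (median 144), from 87.96 to 276 in Dox (median 192) and from 107 to 246 in Dox + ABT (median 169). Its difference between Dox + ABT and Veh was 0.19 (95% interval -0.28 to 0.66), turning to -0.26 (-0.55 to 0.03) with kind of library in the model, so no direction can be given.

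The calcium, adhesion and vesicle genes also passed in no comparison. Calb1 medians were 1008, 939 and 914 normalized counts in Veh, Dox and Dox + ABT, and its log2 fold changes against Veh were -0.06 and -0.07. Trpc6 ran from 440 to 689 in Veh, from 368 to 644 in Dox and from 414 to 707 in Dox + ABT. Against Veh its log2 fold change was -0.13 in Dox (95% interval -0.39 to 0.12) and 0.00065 in Dox + ABT (-0.25 to 0.25). Dsp averaged 799 ± 105 in Veh (SD, n = 10), 760 ± 174 in Dox (SD, n = 8) and 735 ± 130 in Dox + ABT (SD, n = 8). The interval of its difference from Veh in Dox + ABT was -0.38 to 0.11. Stxbp6 averaged 575 ± 149 (SD, n = 10), 589 ± 93.6 (SD, n = 8) and 588 ± 106 (SD, n = 8) in the same order, with an interval of -0.23 to 0.34 for Dox + ABT against Veh.

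Lct lay at the limit of detection, with a mean of 1.69 normalized counts. It was at 0 in 5 of 10 Veh rats, 4 of 8 Dox rats and 1 of 8 Dox + ABT rats, and the highest values were 3.22, 6.37 and 5.67. A count of 3 reads, the limit a count of 0 allows, corresponds to 2.08 to 4.52 normalized counts depending on the library. In first-kind libraries Lct was at 0 in 4 of 4 Veh and 3 of 5 Dox rats and at 0.762 to 5.67 in the 7 Dox + ABT rats. Those Veh rats include replicates 10 and 11, the libraries with the fewest estimated reads. In second-kind libraries Lct was at 0 in 1 of 6 Veh rats, 1 of 3 Dox rats and the only Dox + ABT rat. Its highest values there were 3.22 in Veh and 6.37 in Dox. Lct was under the filter of the main fit, so no fold or test of it is reported here.

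The members differed in how they followed the kind of library. On the log2 scale with group in the fit, Glis3 was 0.94 lower in the second kind than in the first, a difference of -0.94 (SE 0.12). Its ranges did not overlap: 155 to 314 normalized counts in 16 first-kind libraries and 87.96 to 149 in 10 second-kind libraries. Prox1 differed by -0.53 (SE 0.09) and Stxbp6 by -0.34 (SE 0.11). C1ql3 went the other way, at 0.70 (SE 0.12), with C1ql2 at 0.28 (SE 0.10) and Calb1 at 0.22 (SE 0.11). Trpc6 and Dsp were near 0, at -0.02 (SE 0.11) and -0.04 (SE 0.11). Over all tested genes this difference had a median of 0.0076, with its 10th percentile at -0.49 and its 90th at 0.50. Thus 1.67% of genes had a lower value than Glis3 and 94.9% had a lower value than C1ql3. The split was drawn from the same libraries, so these values are given as a description.

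Between rats of the same group the markers did not move as 1 block. Over the 26 rats, the deviations of log2 values from the group means gave 28 pairs of members, and 8 pairs passed an adjusted p of 0.05 over the 28 in a permutation test, 6 with a positive and 2 with a negative r. An r of at least 0.5 in size was reached by 32.1% of the 28 pairs, beside 15.03% of all pairs of tested genes, and with kind means also removed by 21.4%, beside 9.51%. Prox1 and Glis3 had r = 0.76 (rho = 0.77, permutation p = 6.0e-05 and 3.5e-05, adjusted p = 0.0017 and 0.00098). Without the 2 rats farthest from the Prox1 median, r was 0.70. C1ql3 and Glis3 had r = -0.64 (rho = -0.68, permutation p = 0.0021 and 0.00056, adjusted p = 0.0086 and 0.0031), and r was -0.53 without the 2 farthest rats. Stxbp6 was negatively related to C1ql3 (r = -0.51) and positively to Glis3 (r = 0.64) and Prox1 (r = 0.63). With kind means also removed, these 3 values of r were -0.16, 0.52 and 0.33, and none passed.

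Prox1 with Glis3 and C1ql3 with Glis3 did not pass within either kind of library, and whether their r differed from the pooled r was not tested. Prox1 and Glis3 had r = 0.46 in 16 first-kind libraries (adjusted permutation p = 0.183) and -0.03 in 10 second-kind libraries (adjusted p = 0.970). C1ql3 and Glis3 had r = 0.53 in the first kind (adjusted permutation p = 0.125) and -0.07 in the second (adjusted p = 0.970), so the sign of the pooled value was not that of the first kind. The pooled r of these pairs joins 2 clusters of libraries. With both group and kind means removed, 5 of 28 pairs passed and all 5 were positive. In that form 26 of the 28 pairs had a positive r, beside 50.1% of all pairs of tested genes, where 18 of 28 had been positive before, beside 49.9%.

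**Figure D3:**
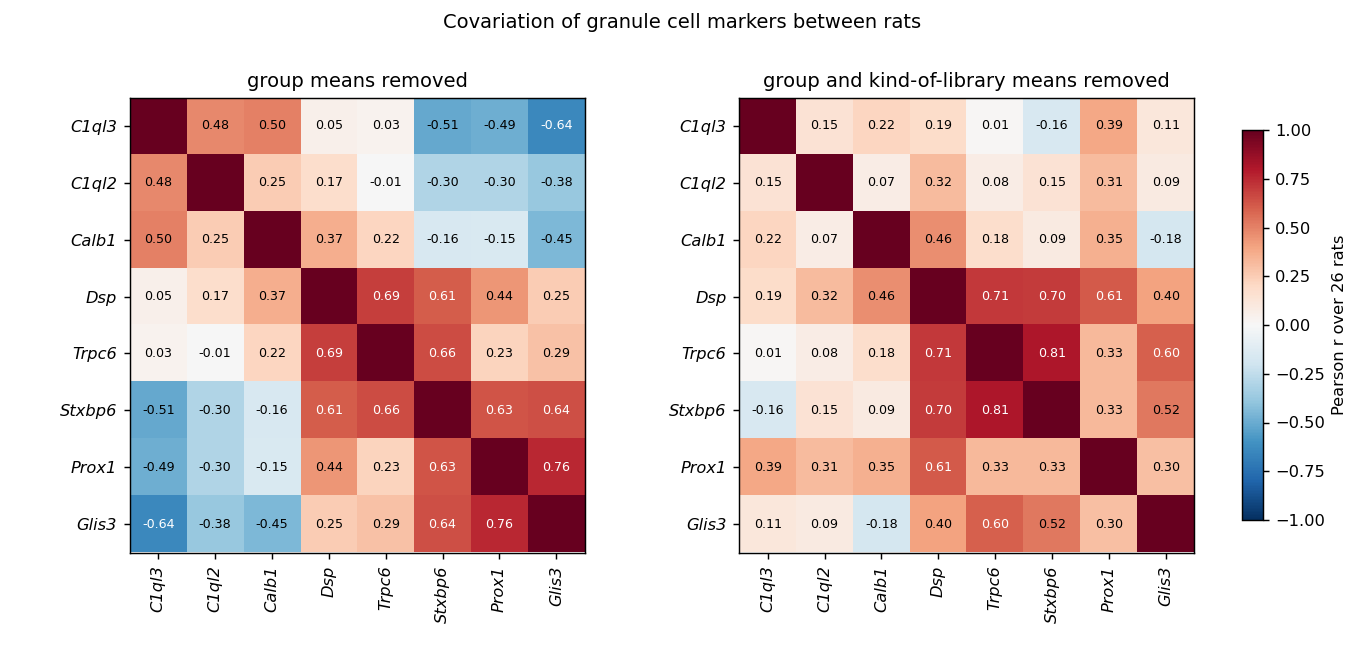
Pearson r (colour, and printed in each cell) between the deviations of 8 genes over 26 rats, with group means removed on the left and group and kind-of-library means removed on the right. On the left C1ql3 and Glis3 stand at -0.64 and Prox1 and Glis3 at 0.76; on the right these are 0.11 and 0.30, while Dsp, Trpc6 and Stxbp6 keep r of 0.70 to 0.81.

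Dsp, Trpc6 and Stxbp6, which encode a junction protein, a channel and a vesicle fusion regulator, varied together in first-kind libraries. The 3 values of r over the 26 rats were 0.69 for Dsp and Trpc6 (rho = 0.70, permutation p = 0.00032 and 0.00018), 0.66 for Trpc6 and Stxbp6 (rho = 0.63, permutation p = 0.00015 and 0.00039) and 0.61 for Dsp and Stxbp6 (rho = 0.59, permutation p = 0.00061 and 0.0017). Their adjusted permutation p-values over 28 pairs were 0.0030, 0.0021 and 0.0034 for r, and 0.0026, 0.0031 and 0.0081 for rho. Without the 2 rats farthest from the median of the first gene of the pair, r was 0.63, 0.63 and 0.51. In the 16 first-kind libraries all 3 values of r were 0.85 (adjusted permutation p = 0.0087 each). In the 10 second-kind libraries r was -0.16, 0.71 and 0.14 for the same pairs, and no pair of members passed there. With group and kind means removed, r was 0.71, 0.81 and 0.70 (adjusted permutation p = 0.0094, 0.0017 and 0.0094).

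Single rats of the Dox + ABT group illustrate this. Its replicates 1 and 2 had the lowest values of all 3 genes in that group: Trpc6 at 414 and 437, Dsp at 532 and 541, and Stxbp6 at 428 and 419. Its replicate 12 had the highest, at 707, 865 and 699. In Dox + ABT the 3 values of r were 0.94, 0.87 and 0.96 (n = 8), against 0.46, 0.73 and 0.51 in Veh (n = 10) and 0.61, 0.45 and 0.53 in Dox (n = 8), and the difference between groups was not tested. The other 2 pairs that passed with group and kind means removed were Prox1 with Dsp (r = 0.61, adjusted permutation p = 0.0169) and Trpc6 with Glis3 (r = 0.60, adjusted permutation p = 0.0094).

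**Figure D4:**
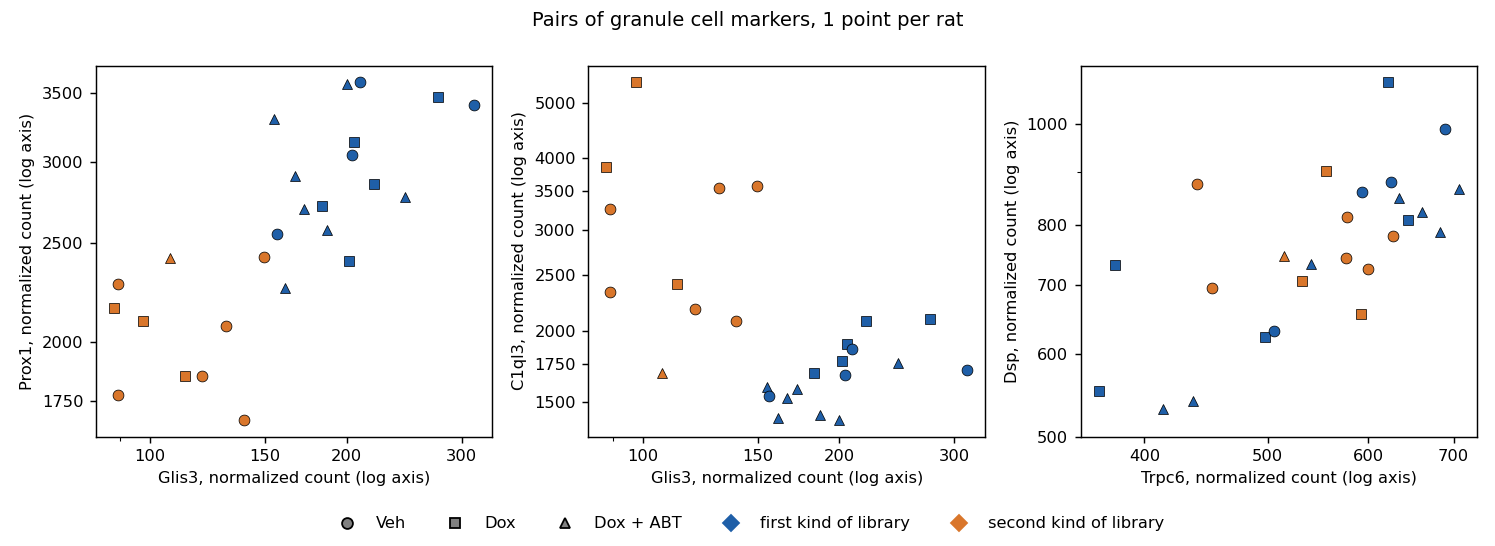
Normalized counts of 3 pairs of genes on log axes, 1 point per rat: Prox1 against Glis3, C1ql3 against Glis3 and Dsp against Trpc6; the symbol gives the group and the colour the kind of library. In the first 2 panels the colours form separate clusters, with Glis3 at 87.96 to 149 in the second kind and 155 to 314 in the first, while in the third panel the colours overlap.

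Markers of CA field pyramidal cells moved against Dsp, Trpc6 and Stxbp6. The paper states that fields CA1 and CA3 were dissected apart from the dentate gyrus. The summed level of the 7 tested CA markers (of 9 listed) ranged from 4429 to 19470 normalized counts in Veh, from 4495 to 17695 in Dox and from 5091 to 25948 in Dox + ABT, and 0 of the 7 had a mean under 1. Over the 26 rats their mean deviation had r = -0.76 with Trpc6, -0.52 with Dsp and -0.52 with Stxbp6, and -0.78, -0.57 and -0.56 with the kind of library removed. The CA sum was 5258 in Dox + ABT replicate 12, where the 3 genes were highest, and 7117 and 15158 in replicates 1 and 2. Replicate 4 had the highest sum of all rats, 25948, with Trpc6 at 515 and Stxbp6 at 602. None of the CA markers passed p under 0.01 in any comparison (0 under 0.05, limma), and their part in the covariation was not tested.

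Other genes of dentate granule cells, 15 of 16 listed being tested, gave 2 calls, both lower in Dox + ABT. At p under 0.01, 0 differed between Dox and Veh, 2 were lower in Dox + ABT than in Veh, and 0 differed between Dox and Dox + ABT (0, 4 and 4 under 0.05, limma). Of all tested genes, 10.2%, 22.5% and 12.7% were under 0.05 in these comparisons. The 2 were Slc29a4, a plasma membrane monoamine transporter, at -0.55 (SE 0.14, p = 0.00061, adjusted p = 0.108) and Gabrd, the delta subunit of the extrasynaptic GABA-A receptor, at -0.34 (SE 0.11, p = 0.0044, adjusted p = 0.113). With kind of library in the model Slc29a4 was at -0.37 (p = 0.0083) and Gabrd at -0.23 (p = 0.0410), by limma. Neither passed in first-kind libraries alone, at -0.18 (p = 0.205) and -0.097 (p = 0.347), by limma. With kind in the model, Sipa1l2 also passed in Dox + ABT against Veh at -0.30 (p = 0.0051, limma). Neurod2 and Pitpnm2 passed there in Dox against Dox + ABT, at 0.41 (p = 0.0044) and 0.31 (p = 0.0086), by limma. In that fit 0.731% of all tested genes were lower in Dox + ABT than in Veh. Higher in Dox than in Dox + ABT were 2.73%. In first-kind libraries alone Sipa1l2 did not pass in Dox + ABT against Veh (p = 0.0170, limma). Neurod2 and Pitpnm2 did pass there in Dox against Dox + ABT (p = 0.00058 and 0.0021, limma). So did Slc29a4 at 0.43 (p = 0.0036) and Bcl11b at 0.32 (p = 0.0016), by limma. In that subset 4.62% of all tested genes were higher in Dox, and not every passing gene of the list is named. Sipa1l2, Neurod2, Pitpnm2 and Bcl11b are named after their values were seen. The mean deviation of this list had r = 0.72 with Prox1 and 0.20 with C1ql2 over the 26 rats, and 0.64 and 0.73 with kind means removed.

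Of the genes of immature granule neurons, 6 of 8 listed were tested. Neurod1, a basic helix-loop-helix factor of young granule cells, was lower in Dox + ABT than in Veh at -0.33 (SE 0.10, p = 0.0030, adjusted p = 0.109) and higher in Dox than in Dox + ABT at 0.38 (SE 0.11, p = 0.0014, adjusted p = 0.166), both by limma. Its means were 708 ± 120 in Veh (SD, n = 10), 731 ± 120 in Dox (SD, n = 8) and 557 ± 64.2 in Dox + ABT (SD, n = 8). Igfbpl1 was lower in Dox than in Veh at -0.94 (SE 0.28, p = 0.0019, adjusted p = 0.212, limma), at a mean of 13.7 normalized counts. Neurod1, with kind of library in the model, lost its call against Veh at -0.23 (p = 0.0279) and passed between Dox and Dox + ABT at 0.33 (p = 0.0025), and Igfbpl1 passed at -0.97 (p = 0.0020), by limma. These 3 differences did not pass in first-kind libraries alone, at -0.13 (p = 0.193), 0.25 (p = 0.0116) and -0.77 (p = 0.0862), by limma. The other 4 passed in no comparison in either fit.

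Around the C1q-like genes, 6 of 7 listed relatives, receptors and kainate receptor subunits were tested. Their paralog C1ql1 was lower in Dox + ABT than in Veh at -0.44 (SE 0.14, p = 0.0047, adjusted p = 0.114), and at -0.27 (p = 0.0531) with kind of library in the model, by limma. The other 5 passed in no comparison. The neurexin gene Nrxn3, named after its value was seen, was, with kind of library in the model, higher in Dox than in Dox + ABT at 0.24 (p = 0.0062, limma). Neither passed in first-kind libraries alone, with C1ql1 at -0.084 (p = 0.577) and Nrxn3 at 0.18 (p = 0.0514), by limma. In the fit on groups, at p under 0.05 the counts for the 6 were 1, 3 and 1 for Dox against Veh, Dox + ABT against Veh and Dox against Dox + ABT, beside 10.2%, 22.5% and 12.7% of all tested genes.

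Of the 5 tested desmosome and plakin genes, Dst and Macf1, cytoskeletal linkers related to Dsp, were higher in Dox + ABT than in Veh, at 0.38 (p = 0.0041) and 0.39 (p = 0.0073), and at 0.19 (p = 0.0609) and 0.17 (p = 0.111) with kind of library in the model, by limma. Among all tested genes 3.89% were higher at p under 0.01. At p under 0.05 this list and the list of 7 SNARE genes each had 1, 3 and 0 genes in Dox against Veh, Dox + ABT against Veh and Dox against Dox + ABT. Of 7 SNARE genes, Stxbp5, the syntaxin-binding protein tomosyn, was higher in Dox than in Veh at 0.30 (SE 0.10, p = 0.0048, adjusted p = 0.292, limma), and at 0.23 (p = 0.0047, limma) with kind of library in the model. None of these 3 passed in first-kind libraries alone, with Stxbp5 at 0.21 (p = 0.0688), Dst at 0.060 (p = 0.569) and Macf1 at 0.039 (p = 0.699), by limma. None of 5 TRPC channels, 5 calcium-binding proteins, 4 tryptophan and kynurenine enzymes or 3 relatives of Prox1 and Glis3 passed p under 0.01 (limma). At p under 0.05 these lists had 2, 2, 1 and 0 genes in Dox + ABT against Veh, where 22.5% of all tested genes were, and 0 in both other comparisons. In the last 2 lists the smallest p-values belonged to Qprt (0.0314) and Glis1 (0.133), by limma.

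Markers of other cell types stood beside these results as follows. In Dox + ABT against Veh, where the C1q-like genes fell, Gad1 and Gad2 of 8 interneuron genes were higher at 0.25 and 0.27. Lower were Aldh1l1 of 6 astrocyte genes (-0.47), Csf1r of 6 microglial genes (-0.48) and Synpo2 of 4 thalamus and habenula genes (-0.51). Of all tested genes, 3.89% were higher and 3.95% lower at p under 0.01. The medians over these lists were 0.18, -0.06, -0.31 and 0.04 in the same order. Pvalb (-0.30), Slc1a3 (0.25) and Lef1 (0.23) went against the called genes of their lists. None of the 5 called genes passed with kind of library in the model, with p from 0.0151 to 0.116 (limma). Their values there were 0.12 (Gad1), 0.16 (Gad2), -0.33 (Aldh1l1), -0.25 (Csf1r) and -0.42 (Synpo2). In Dox against Veh, 3 of 6 astrocyte, 2 of 6 oligodendrocyte and 3 of 6 microglial genes were lower, and 3, 1 and 2 with kind of library in the model. Of all tested genes, 1.85% and 1.63% were lower in these fits. In Dox against Dox + ABT, Rbfox3 of 6 neuronal genes was higher at 0.61 (p = 0.0084, limma), and Aqp4 of 6 astrocyte genes was lower at -0.45. Of all tested genes, 2.32% were higher and 1.71% lower at p under 0.01. The medians over these lists were 0.0095 and -0.17. Other genes of the lists went either way, such as Snap25 (-0.19) and Nefl (0.20), and Gfap (-0.38) and Aldh1l1 (0.035). In the fit that includes kind of library Rbfox3 was at 0.42 (p = 0.0065) and Aqp4 at -0.45 (p = 0.0017), by limma. In first-kind libraries alone Rbfox3 was at 0.25 (p = 0.0121) and Aqp4 at -0.40 (p = 0.0045), by limma. With kind in the model, 2 astrocyte, 2 oligodendrocyte and 1 microglial gene were lower in Dox, beside 2.04% of all tested genes. None of 4 mossy cell and 3 choroid plexus genes passed in any comparison, with smallest p-values for Drd2 (0.0270) and Ttr (0.0147), by limma. The summed level of the astrocyte list ran from 39437 to 60762 normalized counts in Veh, from 33584 to 43143 in Dox and from 38074 to 55080 in Dox + ABT. The part of these cells in the members' values was not tested.

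The genes most like the members were found by the correlation, over the 26 rats, of their deviation with the mean standardized deviation of the 8 members, in the 12121 genes whose mean reached 50. Zfpm2, Gnal, Rgs6, Hnrnpf, Kidins220, Kcnd3, Smad3 and Filip1 stood highest, with r from 0.76 to 0.81. Removing the kind of library left them at 0.78 to 0.85. Smad3, which relays TGF-beta signals, had r = 0.77 and is also in the list of other granule cell genes. The lowest were Fam131c, Dusp5, Mchr1 and Rhbdl3, at -0.84 to -0.79. All genes of 1 rat share its depth and dissection, and these correlations are given as a description.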

How the data were processed

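RNA was sequenced from the dentate gyrus of 26 rats, grouped by the treatment in the labels. The authors selected polyadenylated RNA, sequenced it on an Ion Proton, aligned the reads to rn6 with STAR 2.5.3a in Partek Flow and divided the counts by Median Ratio factors, so the deposited values are a normalized signal and not raw counts. Whole reads came back for only 70.6% to 82.8% of the low values of a library within 0.05 reads, so no count test was used. The rows of a gene ID were summed, genes with a mean under 5 were left out, and log2(value + 1) was fitted in R 4.3.3 with limma 3.58.1 (empirical Bayes with a variance trend), all rats and 3 group terms in 1 model, two-sided. The call was an unadjusted p under 0.01, the threshold of the study, with Benjamini-Hochberg adjustment over 15595 genes beside it. The authors used DESeq2 for their own comparisons. Exact permutation tests compared the rats of 2 groups, and covariation used 100000 permutations of the rats within their groups (smallest possible p 1e-05), over the 28 pairs of 8 tested members, fewer pairs than planned since Lct and Tdo2 dropped out.

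The members and gene lists were chosen with earlier results of these data known. All members are named; from each other list, up to 4 genes with the smallest p under 0.01 in any comparison, otherwise the 1 with the smallest p; and the 8 genes most like and the 4 least like the members. Some genes that this rule names are not reported here. Each rat is 1 replicate, and correlations between libraries ran from 0.941 to 0.987 with 0 identical pairs. Alternatives were other pseudocounts (0.5 and 5), no filter or a mean of 20, TMM rescaling, library weights, the kind of library, a replicate block, the highest row in place of the sum, exact tests and leaving out each rat. On simulated data for Dox against Veh over 15595 genes, with 200 changed by 1 on the log2 scale, 87.5% of these were called at p under 0.01 and 1.05% of the others. Intervals cover the spread between rats, and the 3-read limit covers counting error only. Promoter letters came from a RefSeq table of assembly GRCr8, which held entries for 8 of the 10 members. Figures were drawn with matplotlib 3.10.9.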

Additional observations from a re-analysis of the deposited data

Results flagged for a closer look

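None of the members had a rat standing apart from its group by Dixon's criterion at the 95% level. Together with the members, the genes picked from the other lists gave 102 groups of a gene in 1 treatment, of which chance alone flags about 1 in 20. Of these, 9 held a rat far from the rest. Dox + ABT replicate 4, the only second-kind library of its group, was the highest of its group for 7 genes: Gfap at 25642 normalized counts, Aldh1l1 at 470, Cnp at 6238, Csf1r at 2318, Aif1 at 215, Cx3cr1 at 620 and Tmem119 at 519. The other 2 were Rbfox3 in Dox replicate 5 at 10248 (next 6385) and Igfbpl1 in Dox + ABT replicate 6 at 4.82 (next 12.5).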

How the results depend on the processing

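Direction and side of the threshold held for both calls on C1ql2 and C1ql3 against Veh and for C1ql3 between Dox and Dox + ABT under other pseudocounts, other filters, TMM rescaling (which moved the median of all genes by under 0.01), the highest row and the exact test. The number of members passing p under 0.01 in Dox + ABT against Veh was 1 with kind of library in the model, 1 with library weights and kind together and 0 in first-kind libraries alone, and with library weights it was 3, and 1 in Dox against Veh, in a fit that called far more of all genes (11% lower in Dox against Veh, 15.5% higher and 18.4% lower in Dox + ABT against Veh). Leaving out each rat gave 0 to 0 members for Dox against Veh, 1 to 2 for Dox + ABT against Veh, 1 to 1 for Dox against Dox + ABT, and 7 to 12 covarying pairs. Covarying pairs numbered 5 with group and kind means removed, 3 in the first kind and 0 in the second. First-kind and second-kind libraries alone, and weights with kind, were added after the data had been seen. Fewer samples entered the fits of 1 kind; the cause of the other changes was not tested.

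Only members below the threshold turned direction. With kind of library in the model, log2 fold changes in Dox against Veh were -0.032 for Prox1, -0.10 for Glis3 and -0.013 for Stxbp6; in Dox + ABT against Veh, -0.028 for Prox1, 0.035 for Calb1, -0.011 for Trpc6, -0.26 for Glis3 and -0.11 for Stxbp6; and in Dox against Dox + ABT, -0.049 for Calb1 and 0.15 for Glis3. With weights and kind, they were -0.054 (Prox1) and -0.069 (Glis3) in Dox against Veh, -0.060 (Prox1), 0.086 (Calb1), -0.29 (Glis3) and -0.084 (Stxbp6) in Dox + ABT against Veh, and 0.0063 (Prox1), -0.17 (Calb1) and 0.22 (Glis3) in Dox against Dox + ABT. In first-kind libraries alone, they were -0.11 (Prox1), 0.051 (C1ql2) and -0.20 (Stxbp6), then -0.14 (Prox1), 0.040 (Calb1), -0.071 (Trpc6), -0.23 (Glis3) and -0.31 (Stxbp6), then 0.027 (Prox1), -0.18 (Calb1) and 0.24 (Glis3), in the same order of comparisons. With weights alone, they were -0.36 (C1ql3) and 0.0080 (Dsp) in Dox against Veh and -0.18 (Calb1) and 0.14 (Glis3) in Dox against Dox + ABT, and with the highest row Trpc6 was at -0.023 in Dox + ABT against Veh. Leaving out single rats turned C1ql3 (-0.059 to 0.18), Calb1 (-0.14 to 0.014) and Glis3 (-0.0031 to 0.23) in Dox against Veh, Stxbp6 (-0.0078 to 0.12) and Trpc6 (-0.046 to 0.064) in Dox + ABT against Veh, and Calb1 (-0.072 to 0.084), Dsp (-0.040 to 0.10), Glis3 (-0.19 to 0.042) and Stxbp6 (-0.056 to 0.050) in Dox against Dox + ABT.

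The replicate numbers do not pair rats: 16 same-numbered pairs had correlations of -0.17 to 0.30 and 1 of 23 rats was closest to its own number. With the replicate block, 0 members passed in Dox against Dox + ABT, where C1ql3 was at 0.67 (p = 0.0234, limma), and in that comparison Calb1 was at -0.13, Dsp at -0.089 and Stxbp6 at -0.091.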

Other observations

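Single members also had their own closest genes over the 26 rats, named here after their values were seen. C1ql3 had r = 0.96 with Rbfox3 and 0.96 with Rbfox1, neuronal splicing factors, and 0.89 with both when the kind of library was removed. Rbfox3 was also higher in Dox than in Dox + ABT, and its highest rat, Dox replicate 5, was the rat with the highest C1ql3. C1ql2 had r = 0.91 with Dtnb, dystrobrevin beta, and 0.87 with the kind removed. Glis3 had r = 0.92 with Tub, and 0.65 with the kind removed. Stxbp6 had r = 0.90 with Hipk1, Calb1 had 0.85 with Ola1, Dsp had 0.81 with Smad3 and Trpc6 had 0.82 with Rgs6. Trpc6 went most against Dclk2, a doublecortin-like kinase, at r = -0.86. These are the extremes of 12121 genes and carry no test.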
